A study of Homo sapiens with 4 samples.

Results

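The domains described here are the topologically associating domains (TADs) that lie near the ends of the human autosomes in Hi-C data from VA-ES-BJ cells. A domain was taken when it lay wholly within the last 5 Mb before the largest listed end of a chromosome in that sample's list, or wholly within the first 5 Mb of the list. The first 5 Mb of chromosomes 13, 14, 15, 21 and 22 were left out, because the short arms of these acrocentric chromosomes carry mostly unsequenced repeats and their lists do not begin at a chromosome end. This gave 39 end windows, 17 at list starts and 22 at the distal ends. With empty vector they held 616 of 6530 domains (sample A) and 603 of 6486 (sample B). With BAF47 they held 613 of 6531 (A) and 628 of 6589 (B). Over the 4 lists, 2460 of 26136 entries (9.41%) were end domains. The rest of each chromosome was tiled into 483 interior windows of the same 5 Mb, and the same rule of lying wholly inside a window was applied there.

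VA-ES-BJ is a cell line from an epithelioid sarcoma, a tumour type that commonly lacks BAF47, the product of SMARCB1 and a subunit of BAF (SWI/SNF), a complex that remodels chromatin. Cells were infected with an empty lentiviral vector (2 samples, A and B) or with a vector expressing BAF47 (2 samples, A and B), and both groups went through blasticidin selection at 10 µg/ml. Formaldehyde at 1% is given for all 4 samples. The labels disagree on whether 48 h refers to virus exposure or to selection and whether 5 days refers to selection or to growth. All samples come from 1 cell line, and the labels do not say whether A and B were separate infections, so the p-values reflect no more than the spread among these 4 libraries and that spread may be technical. The lists carry no expression values, so neither the cell type nor the level of BAF47 could be checked from them.

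Hi-C joins and sequences DNA ends that lie close together in the nucleus, and a TAD is a stretch whose sequences contact one another more than they contact the flanking chromatin. The edges of TADs are often occupied by CTCF and cohesin, which hold loops of chromatin. Chromosome ends finish in telomeric repeats, and the sequence next to them is in many chromosomes rich in genes and in GC. The BAF complex moves and evicts nucleosomes, mainly at enhancers and promoters, and the question behind the comparison is whether restoring its BAF47 subunit alters domain organisation.

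Positions are those of the deposited lists, which are on a 50 kb grid. They are running bin numbers with some bins left out, based on hg18 per the submitters' processing notes, and not hg18 coordinates. A listed 5 Mb can therefore span more than 5 Mb of chromosome, and no gene or sequence was assigned to a domain. Read depth is unknown. On 19 of 22 chromosomes the largest listed end was the same in all 4 lists, and on 20 of 22 the first domain began at 0 in all 4.

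The chromosomes whose largest ends differed were 2, 9 and 20. On chromosome 9 the lists ended at 121.95 Mb in both empty vector samples and at 122 Mb in both BAF47 samples. On chromosome 20 they ended at 59.7 Mb in 3 samples and at 59.65 Mb in BAF47 B. On chromosome 2 the BAF47 B list ended at 238.25 Mb and the others at 238.35 Mb. Each end window of empty vector B, BAF47 A and BAF47 B was matched with empty vector A at the listed position and at 50 kb to either side. Of the 117 matches, 114 were best at the listed position and 3 were best after a move of 1 bin.

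Those 3 were the distal windows of chromosome 9 in both BAF47 samples and of chromosome 20 in BAF47 B. At the distal end of chromosome 9, 14 of the 22 domain starts in BAF47 A matched empty vector A at 50 kb higher and 4 matched as listed. In BAF47 B, 16 of 24 starts on chromosome 9 matched at 50 kb higher and 4 as listed. On chromosome 20, 12 of the 18 starts in BAF47 B were listed exactly 50 kb below a start of empty vector A, and 1 was at the same position. Whole domains followed the starts, with 9 against 0, 11 against 1 and 7 against 0 in these 3 windows. The shifted numbering extended inward from the chromosome ends. It ran from 51.2 Mb to the end of chromosome 9 in BAF47 A, from 38.65 Mb in BAF47 B, and from 13.75 Mb to the end of chromosome 20 in BAF47 B. Values that depend on matching positions are given below both as listed and with these blocks put in step with empty vector A, which is called corrected. Sizes and numbers of end domains are the same in either numbering.

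**Figure D1:**
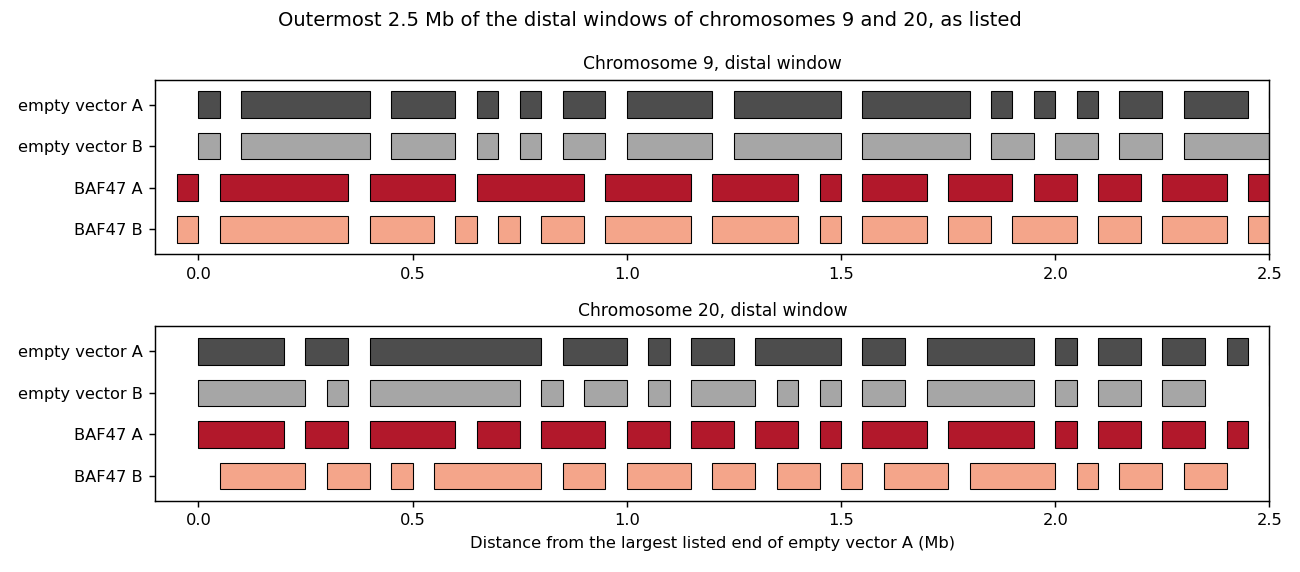
Domains in the outermost 2.5 Mb of chromosomes 9 and 20, drawn at their listed distance from the largest listed end of empty vector A (x axis, Mb, running inward from the tip), with 1 row for each of the 4 samples. On chromosome 9 both BAF47 rows sit 50 kb beyond the empty vector rows, and on chromosome 20 the BAF47 B row sits 50 kb short of the other 3.

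End domains were more numerous per window than interior domains and their mean size was smaller. Their median size was the same for domains wholly inside a window, but smaller than the interior median by midpoint. With empty vector the mean size of end domains was 241.6 kb (A) and 243.7 kb (B), and with BAF47 it was 245.4 kb (A) and 238.7 kb (B). All 4 values lay below the interior mean of 275.3 kb, and the difference was -33.0 ± 1.72 kb (SD, n = 4 samples; exact sign-flip test over the 4 samples, two-sided, p = 0.125, adjusted p = 0.156). With 4 samples this test cannot give a p below 0.125. P-values were adjusted by Benjamini-Hochberg over the 5 comparisons of ends with interior. The median was 150 kb in each sample at the ends and in the interior, and the upper quartile was 250 kb against 300 kb. The size of the difference depended on how domains were assigned to windows. An end window has 1 border that can cut a domain and an interior window has 2, so the rule removes long domains more often in the interior. When domains were assigned by midpoint, the means were 251.4 kb and 343.8 kb, a difference of -92.4 ± 2.16 kb. The median was then 150 kb at the ends and 200 kb in the interior in each sample, and the upper quartile 250 kb against 350 kb.

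The numbers per window showed the same direction. End windows held 15.8 ± 0.26 domains each (SD, n = 4) and interior windows 11.1 ± 0.05, a difference of 4.63 ± 0.21 that was positive in 4 of 4 samples (exact sign-flip test, p = 0.125, a comparison added after the data were seen). By midpoint the numbers were 16.1 and 11.8. Weighting each chromosome's interior by its number of end windows gave 11.5 domains per interior window. Averaged over the 4 samples, the end windows ranged from 6 to 26.5 domains with a median of 15.75, and the interior windows from 0 to 30 with a median of 11. Chromosome by chromosome and by midpoint, 28 of 39 end windows held more domains than the mean interior window of the same chromosome (12 of 17 starts, 16 of 22 distal ends). A smaller mean size than the chromosome's own interior was found in 23 of 39 for domains wholly inside a window, and in 25 of 39 by midpoint.

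**Figure D2:**
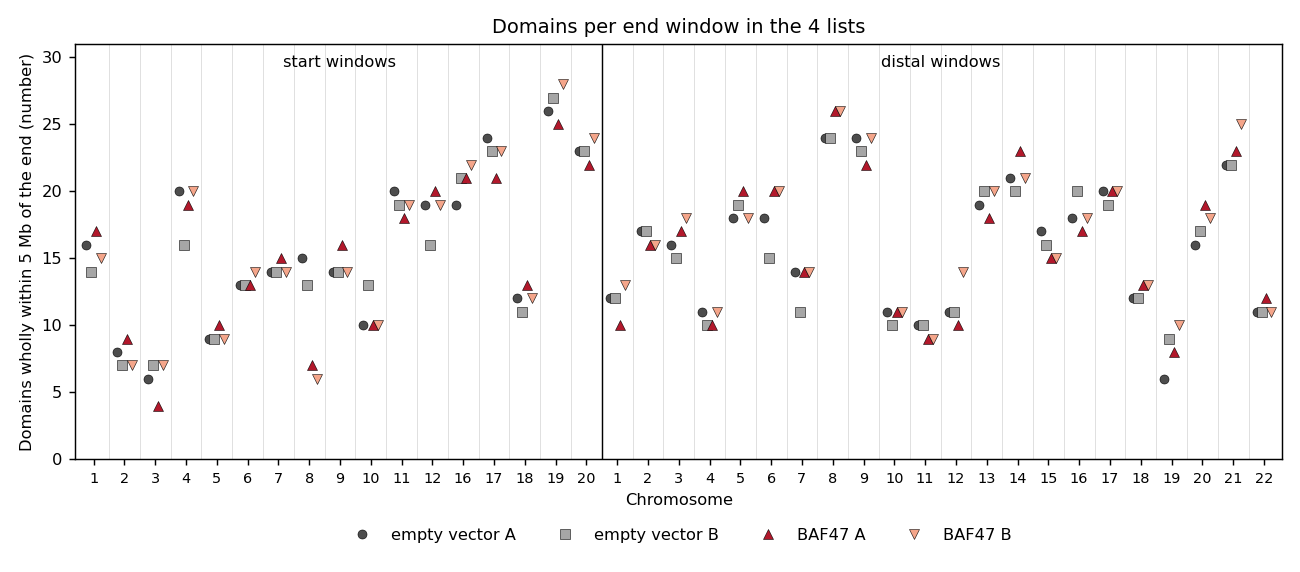
Number of domains in each of the 39 end windows (y axis) by chromosome (x axis), start windows on the left and distal windows on the right, with 1 symbol for each of the 4 samples. At the start of chromosome 8 both BAF47 symbols (7 and 6) lie well below both empty vector symbols (15 and 13), and at the start of chromosome 19 all 4 lie between 25 and 28.

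Long domains made up a smaller share at the ends. Domains of 500 kb or more numbered 54, 52, 53 and 55 at the ends (empty vector A and B, BAF47 A and B), or 8.70 ± 0.07% of end domains, against 13.4 ± 0.14% in the interior. Domains of 50 kb, the smallest the grid allows, numbered 130, 118, 121 and 129, or 20.2 ± 0.72% against 18.7 ± 0.27%. On average this share was above the interior at distal ends only, with 21.9 ± 0.25% in distal windows and 18.1 ± 1.43% in start windows. The longest end domain was 3.2 Mb in every sample. Just outside the selection, 24, 27, 22 and 20 domains crossed the inner border of an end window, with medians of 450, 450, 425 and 375 kb. The innermost domain inside each window had a median of 200 kb.

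Mean size ranged widely between windows. The smallest domains were at the start of chromosome 19, with a mean of 139.0 ± 9.22 kb (SD, n = 4) and 26, 27, 25 and 28 domains. The distal windows of chromosomes 8 and 9 followed, at 150.3 ± 9.25 kb and 163.2 ± 8.94 kb. The largest were at the start of chromosome 3, at 732 ± 242 kb with 6, 7, 4 and 7 domains. The spread there came from 1 list, since BAF47 A had a domain from 0.4 to 3.05 Mb where the other 3 lists began the long domain at 0.85 or 0.9 Mb with smaller domains before it. The distal window of chromosome 19 averaged 489 ± 115 kb. In it the last domain was 2.9 Mb long in empty vector A, while the other 3 lists closed that domain at 55.55 or 55.6 Mb and listed a further 200 kb, 200 kb or 50 kb domain at the tip. The start of chromosome 5 averaged 481 ± 27.2 kb with 9, 9, 10 and 9 domains.

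Some long domains near chromosome ends were the same to the bin in all 4 lists. The longest ran from 1.65 to 4.85 Mb on chromosome 5 (3.2 Mb). The next were 1.05 to 2.85 Mb on chromosome 10, 0.85 to 2.5 Mb on chromosome 18, 128.9 to 130.5 Mb on chromosome 10 and 0.15 to 1.6 Mb on chromosome 8. Both ends of chromosome 10 and the starts of chromosomes 5, 8 and 18 thus carried a domain of at least 1.45 Mb that was listed identically with and without BAF47.

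The outermost megabase held the most and the smallest domains. Taking the 37 ends of chromosomes with at least 40 Mb of list (chromosomes 21 and 22 left out), domain midpoints numbered 4.11 ± 0.11 per Mb within 1 Mb of the end (SD, n = 4). The numbers were 3.26 ± 0.09 from 1 to 2 Mb and 2.80 ± 0.06 from 2 to 3 Mb. From 3 to 4 Mb there were 2.83 ± 0.09 per Mb and from 4 to 5 Mb 2.94 ± 0.06. Beyond the windows they were 2.48 ± 0.02 from 5 to 10 Mb, 2.58 ± 0.03 from 10 to 15 Mb and 2.62 ± 0.04 from 15 to 20 Mb. The first megabase therefore lay above every later distance band in all 4 samples, and no steady trend was seen past 2 Mb. Mean size was 180 ± 5.77 kb in the first megabase and 301 ± 12.2 kb in the next, and 337 ± 6.75 kb from 5 to 10 Mb. A domain whose midpoint lies within 1 Mb of the list's end cannot be longer than 2 Mb, which limits the first value. The same limit bears on the number per Mb in that band, and its effect was not tested. In the first megabase the mean was 191 ± 7.60 kb at starts and 171 ± 7.79 kb at distal ends, a difference that was not tested.

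**Figure D3:**
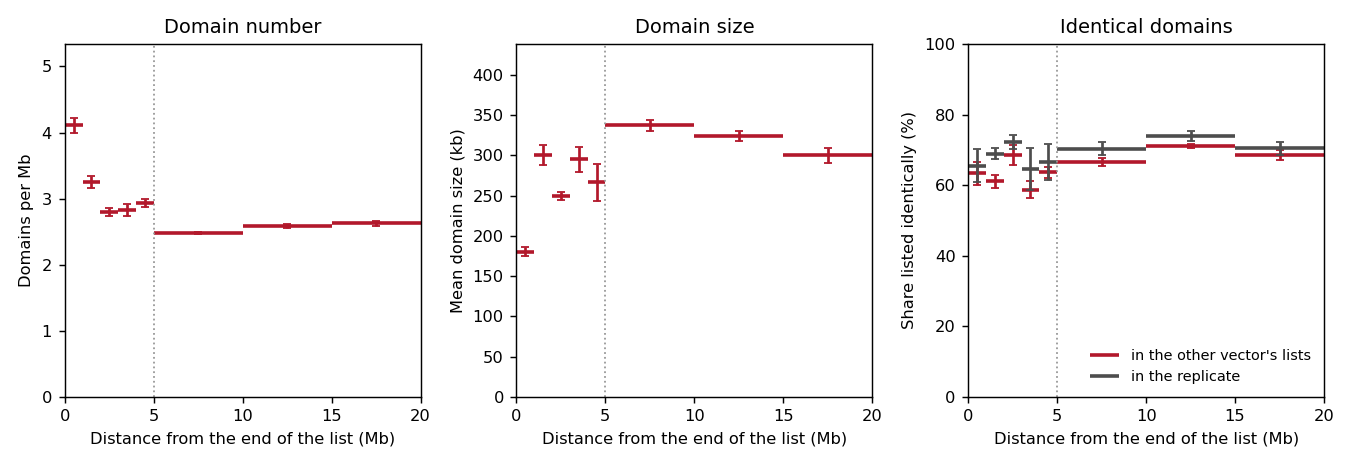
Domains per Mb, mean size in kb and the share of domains listed identically in % (y axes of the 3 panels) against listed distance from the end of the list in Mb (x axis), over 37 ends on corrected numbering. Horizontal lines are means over distance bands, error bars are the SD of the 4 samples and the dotted line is the 5 Mb border. The number falls from 4.11 per Mb in the first megabase to 2.80 between 2 and 3 Mb, and lies between 2.48 and 2.62 from 5 to 20 Mb.

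The domain at the very tip was usually small. At the distal ends its median size was 50 kb, and 49 of the 88 tip domains (22 ends in 4 lists) were exactly 50 kb. At the starts the median was 100 kb, and 20 of 68 were 50 kb. The tip domain was identical in all 4 lists at 10 of 17 starts and at 13 of 22 distal ends as listed (14 corrected). On corrected numbering it differed by vector at 1 end only, the distal end of chromosome 5, where both empty vector lists had 177.75 to 177.8 Mb and both BAF47 lists 177.6 to 177.8 Mb.

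Coverage of the end windows by domains was close to that of the interior. Domains covered 81.9% and 81.6% of the end windows with empty vector (A and B) and 82.0% and 81.8% with BAF47, counting also the parts of domains that cross a border. The interior values were 80.8%, 80.7%, 81.6% and 81.9%, so ends exceeded interior in 3 of 4 samples, by 0.57 ± 0.53 percentage points (exact sign-flip test, p = 0.25, adjusted p = 0.25). Weighted by chromosome the difference was 1.31 points, and it was -0.410 points over distal ends alone.

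Long unlisted gaps were fewer at the ends. Neighbouring domains are usually separated by a single 50 kb bin, and 95.1 ± 0.78% of the spaces between end domains were exactly that, against 87.6 ± 0.60% in the interior. Gaps of 100 kb or more numbered 27, 34, 25 and 26 in the end windows and 626, 639, 596 and 582 in the interior. Per window this was 0.718 ± 0.105 and 1.26 ± 0.054, a difference of -0.547 ± 0.070 that was negative in 4 of 4 samples (exact sign-flip test, p = 0.125, adjusted p = 0.156). These gaps had a median of 150 kb, and 22 of 39 windows held at least 1. Of 69 distinct gaps, 4 were listed identically in all 4 samples and 43 in 1 sample. A gap was present in all 4 lists, at the same or another position, in 12 of the 22 windows.

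The amount of sequence in these gaps varied between windows. The distal window of chromosome 15 had 1000, 1450, 800 and 1200 kb in such gaps. Its largest was 750 kb, from 77 to 77.75 Mb in both empty vector lists, and in both BAF47 lists it was broken at 77.35 Mb. The distal window of chromosome 19 had 850, 550, 500 and 700 kb and that of chromosome 5 had 450, 650, 650 and 650 kb. The start of chromosome 8 had 550 and 850 kb with empty vector and 0 in both BAF47 lists, and is described further below.

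Fewer end domains than interior domains were identical to the bin in a second sample, and the difference was much smaller when edges could differ by 1 bin. As listed, 67.4%, 68.8%, 65.6% and 64.2% of the end domains of the 4 samples had an identical domain in the replicate with the same vector, a mean of 66.5% against 72.3% in the interior. The difference was -5.80 ± 1.49 percentage points (4 of 4 samples; exact sign-flip test, p = 0.125, adjusted p = 0.156), and -5.56 ± 1.25 corrected. Samples share partners in all comparisons of identical domains, so the 4 differences are not independent and the tests overstate the number of separate values. Against the samples of the other vector, 60.2%, 63.9%, 60.4% and 61.7% were identical on average, a mean of 61.6% against 67.0% (-5.41 ± 2.10 points, 4 of 4 samples; exact p = 0.125, adjusted p = 0.156). Corrected, the means were 63.7% and 69.7%. With the interior weighted by chromosome the difference across vectors was -3.03 points as listed and -6.10 points corrected. When positions within 50 kb counted as a match, ends minus interior was -0.855 points in the replicate (exact sign-flip test, unadjusted p = 0.375) and -1.82 points across vectors (exact sign-flip test, unadjusted p = 0.125).

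By size, end and interior shares lay closest for 50 kb domains and farthest apart for the longest. On corrected numbering, 60.7 ± 3.27% of 50 kb end domains recurred in the other vector's lists (SD, n = 4), against 62.4 ± 0.56% in the interior. For domains of 500 kb or more the shares were 57.5 ± 2.75% and 69.0 ± 0.74%. Between these sizes the end shares were 66.7 ± 2.96% (100 to 200 kb) and 62.6 ± 3.08% (250 to 450 kb), against 72.1 ± 1.12% and 71.3 ± 0.99%. In the replicate of the same vector, 62.6 ± 1.41% of end domains of 500 kb or more recurred, against 74.7 ± 0.47% in the interior. These shares by size are descriptions without a test, and their 4 values share partners in the same way.

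Counting each distinct end domain once, 1076 were listed on corrected numbering, of which 287 (26.7%) were in all 4 lists and 417 (38.8%) in 1 list. In the interior the shares were 33.5% and 32.6%. As listed, 277 of 1105 end domains (25.1%) were in all 4. Between windows the share in all 4 lists ranged from 0 to 64.3% with a median of 26.3%. It was highest at the start of chromosome 10, with 9 of 14, and 0 at the start of chromosome 2 and the distal end of chromosome 19.

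Agreement between samples with the same vector was only a little above agreement across vectors. On corrected numbering, the shared end domains made up 51.6% of all end domains of the empty vector pair and 50.1% of those of the BAF47 pair. The 4 pairs across vectors had 43.1%, 47.0%, 47.0% and 49.9%, the highest being empty vector B with BAF47 B. For single edges the same-vector pairs shared 78.7% and 77.4%, and the pairs across vectors 72.1% to 76.5%. In the interior, the domain shares were 57.1% and 57.9% within vectors and 53.1% to 54.0% across.

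Between vectors, the number, size and coverage of end domains over all end windows differed by less than the replicates did. This did not hold without the start window of chromosome 8, as given below. End domains numbered 609.5 ± 9.19 with empty vector (SD, n = 2) and 620.5 ± 10.6 with BAF47 (n = 2), a difference of 11 domains against a largest gap of 15 between replicates (exact permutation test of the vector labels, two-sided, p = 0.667, adjusted p = 0.889). With 2 samples against 2 this test cannot give a p below 0.33, and p-values were adjusted over the 4 comparisons of vectors. Mean size was 242.7 ± 1.46 kb and 242.0 ± 4.71 kb, a difference of -0.65 kb (exact p = 1, adjusted p = 1). Coverage was 81.7 ± 0.20% and 81.9 ± 0.15%, a difference of 0.17 points (exact p = 0.667, adjusted p = 0.889). Gaps of 100 kb or more numbered 30.5 ± 4.95 and 25.5 ± 0.71, a difference of -5 against a replicate gap of 7 (exact p = 0.333, adjusted p = 0.889).

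Leaving out the start of chromosome 8 moved these differences. Number, size and coverage then differed by more than the replicates did, and samples did not overlap between vectors. Without that window, chosen after the data were seen, the difference in number was 18.5 domains against a largest replicate gap of 16. Empty vector samples had 601 and 590 domains and BAF47 samples 606 and 622 (exact permutation test, p = 0.333). Mean size differed by -3.05 kb against a replicate gap of 2.98 kb (241.5 and 243.0 kb against 240.7 and 237.7 kb). Coverage turned to -0.289 points against a replicate gap of 0.237 (82.0% and 81.8% against 81.7% and 81.5%). The difference in gaps was -1 (24 and 29 against 25 and 26). In interior windows coverage was higher with BAF47 by 1.01 points (exact permutation test, p = 0.333, both BAF47 samples above both empty vector samples). The coverage difference at the ends minus that in the interior was -0.839 points (exact permutation test, p = 0.333, also added after the data were seen).

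Domain by domain, most end domains that both empty vector lists agreed on were kept with BAF47. Of 415 such domains, 276 (66.5%, 95% Wilson interval 61.8% to 70.9%, counting error only) were identical in both BAF47 lists as listed. Corrected, 286 (68.9%, 64.3% to 73.2%) were in both BAF47 lists, 81 (19.5%) in 1 of them and 48 (11.6%) in neither. Of 3899 interior domains, 74.2% (72.8% to 75.5%) were in both and 10.1% in neither. In the other direction, 287 of 415 end domains shared by both BAF47 lists (69.2%) were in both empty vector lists, against 73.1% in the interior.

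Domains that were not kept had most often moved 1 edge by 1 bin, at the ends as in the interior. Of the same 415 on corrected numbering, 316 were identical in BAF47 A and 337 in BAF47 B. In 70 and 61 the domain kept 1 edge, and the other edge had moved by exactly 50 kb in 50 and 48 of these. Only 5 and 7 were divided into smaller domains within the same outer edges. In 17 and 6 neither edge was kept, and 7 and 4 had no listed domain in their place. In the interior, 13.1% and 12.8% kept 1 edge, against 16.9% and 14.7% at the ends. The other edge had moved by exactly 50 kb in 336 of these 511 interior domains in BAF47 A and 347 of 501 in BAF47 B. Divided were 1.67% and 1.72% in the interior against 1.20% and 1.69% at the ends. Neither edge was kept in 2.13% and 2.08% against 4.10% and 1.45%.

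Edges were then compared directly. An edge was called gained when both BAF47 lists and neither empty vector list had it, and lost in the reverse case, out of all edges listed in both samples of at least 1 vector. A position counted as the same edge whether a list had it as a domain start or as a domain end. As listed, 70 of 1243 end edges were gained (5.63%) and 58 lost (4.67%). Over all reproducible edges of the genome 4.76% were gained and 4.55% lost, so the lost share at the ends was near the background. Corrected, 59 of 1232 end edges were gained (4.79%) and 47 lost (3.81%), against 3.78% and 3.57% over all edges. Of the edges in both empty vector lists, 944 of 1085 at the ends (87.0%) were in both BAF47 lists, against 88.4% elsewhere. Most changed edges lay close to an edge of the other vector. For 39 of the 59 gained edges and 29 of the 47 lost edges the distance was 50 kb, and 12 of each lay over 100 kb away.

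Over all end windows, fewer edges counted as changed once the shifted blocks were moved. The moves were chosen to align domain starts with empty vector A, so closer agreement with that list is partly built in. At the distal end of chromosome 9, 16 gained and 16 lost edges were counted as listed and 4 and 4 after the blocks were moved. There 0 of 65 distinct domains were in all 4 lists as listed and 6 of 48 corrected. At the distal end of chromosome 20 the counts were 3 gained and 2 lost as listed and 4 and 3 corrected, and domains in all 4 lists went from 0 of 53 to 4 of 41. Starts had 20 gained and 25 lost of 524 edges, and 11 of these lost edges were in the start window of chromosome 8. Distal ends had 39 gained and 22 lost of 708, corrected. The difference between starts and distal ends was not tested.

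**Figure D4:**
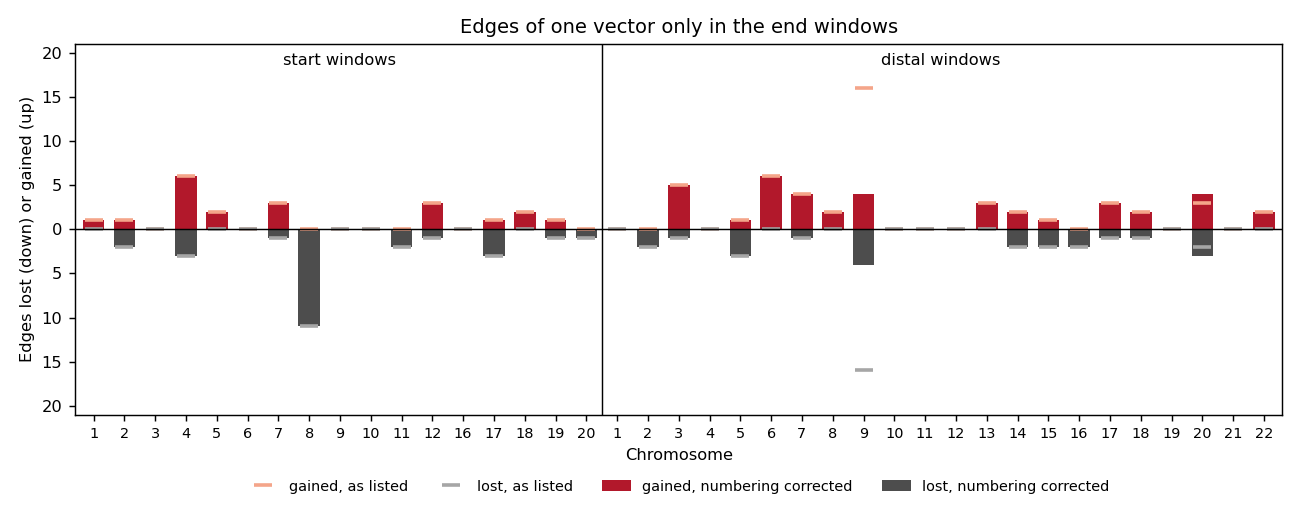
Edges gained (up) and lost (down) with BAF47 in each of the 39 end windows by chromosome, as counts on corrected numbering (bars) and as listed (ticks). The start of chromosome 8 has 11 lost and 0 gained edges, the distal window of chromosome 6 has 6 gained and 0 lost, and at the distal end of chromosome 9 the ticks at 16 shrink to bars of 4.

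The changes were spread unevenly. On corrected numbering 12 of 39 windows had no gained or lost edge, 15 had more gained than lost and 9 more lost than gained. No matching counts of interior windows are given, so whether this spread is particular to the ends was not tested. By domain number, both BAF47 lists lay above both empty vector lists in 6 of 39 windows (15.4%) and below in 4 (10.3%). Over all 522 end and interior windows 12.5% were higher and 8.43% lower, so these shares were near the background.

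The end window with the largest difference in domain number was the start of chromosome 8, where domains were fewer with BAF47. The window held 15 and 13 domains with empty vector and 7 and 6 with BAF47. From 0 to 2.3 Mb the first 6 domains were identical in all 4 lists. Both empty vector lists then had a domain from 2.35 to 3.4 Mb followed by a row of domains of 50 to 150 kb up to 4.8 Mb. BAF47 A had instead 1 domain from 2.35 to 4.85 Mb. BAF47 B had 1 from 2.35 to 6.05 Mb, which crosses the 5 Mb border and is not itself an end domain. Coverage of the window was 77% and 75% with empty vector and 93% and 94% with BAF47. All 11 changed edges in it were lost, and the 5 lost edges farthest from any BAF47 edge were all here, between 3.4 and 3.95 Mb and 900 to 1200 kb away. The lost edges at 3.8, 3.95 and 4 Mb were a domain start in 1 empty vector list and a domain end in the other. The 2 empty vector lists did not place the small domains alike, and each of the 6 between 3.6 and 4.25 Mb in empty vector A was in that list alone. Without this window 36 edges at the ends were lost, corrected, in place of 47.

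At the distal end of chromosome 6 domains were more numerous with BAF47, at 20 and 20 against 18 and 15. Both empty vector lists had a 650 kb domain from 166.75 to 167.4 Mb and before it a domain from 165.9 to 166.7 Mb. In both BAF47 lists the earlier domain ended at 166.65 Mb. The stretch after it was listed as 4 domains, from 166.7 to 166.75, 166.8 to 166.85, 166.9 to 167.15 and 167.2 to 167.4 Mb. The 2 domains beyond, up to the tip at 167.6 Mb, were identical in all 4 lists. The window had 6 gained edges and 0 lost, and both BAF47 lists placed these 4 domains alike to the bin.

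The gained edges farthest from any empty vector edge were pairs inside long domains. On chromosome 20 both BAF47 lists, corrected, had an end at 56.6 Mb and a start at 56.65 Mb, about 3.1 Mb from the tip. These lay 600 and 550 kb from the nearest empty vector edge, inside domains of 1.9 Mb (empty vector A) and 1.8 Mb (empty vector B). At the start of chromosome 7 both BAF47 lists had an end at 3.15 Mb and a start at 3.2 Mb, 400 and 450 kb from the nearest empty vector edge, where both empty vector lists had 1 domain from 2.75 to 4.5 Mb. The remaining named edge, at 77.35 Mb near the distal end of chromosome 15, lay within the 750 kb unlisted gap of the empty vector lists. It was a domain end in BAF47 A and a domain start in BAF47 B, so the BAF47 lists did not share a domain there.

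**Figure D5:**
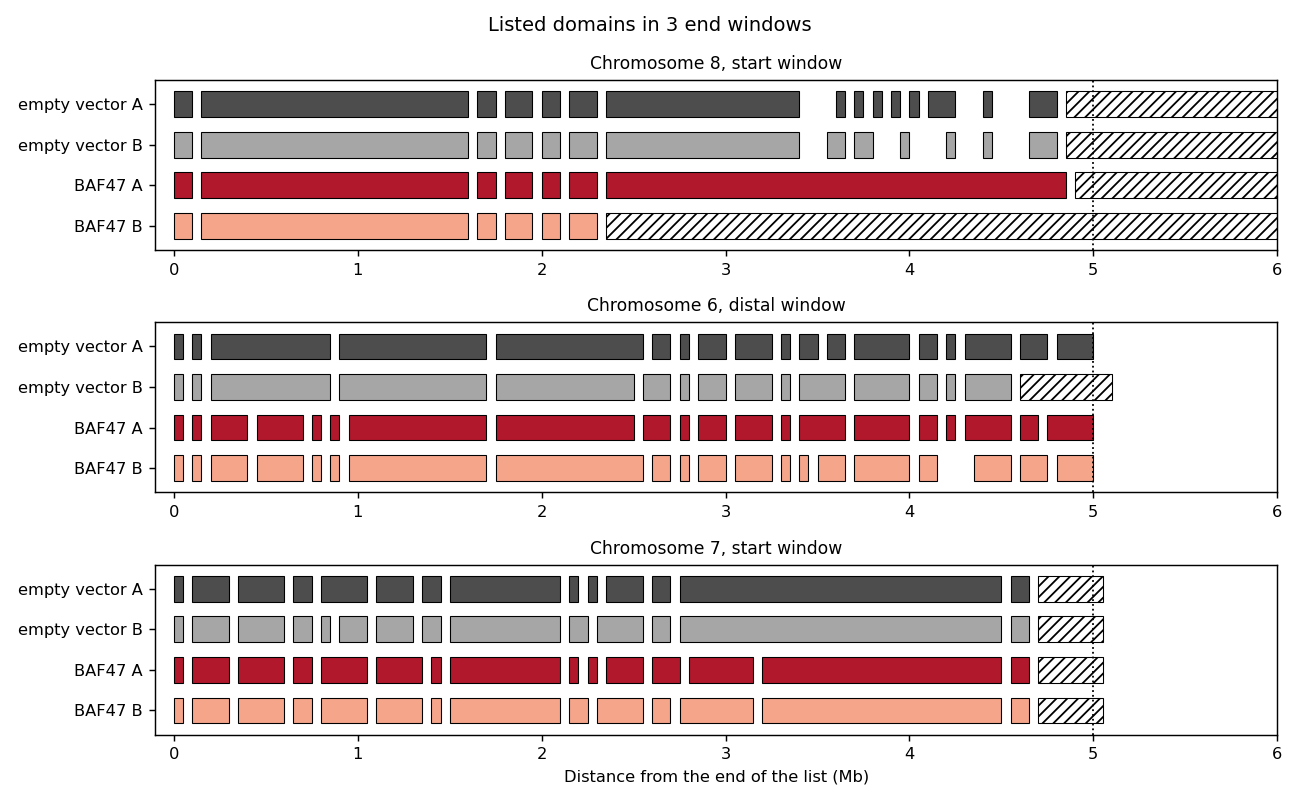
Domains in 3 end windows (start of chromosome 8, distal end of chromosome 6, start of chromosome 7) by listed distance from the end of the list in Mb (x axis; the chromosome 6 panel runs inward from the tip), with 1 row for each of the 4 samples. Hatched blocks cross the window's inner border (dotted line) and are not end domains. On chromosome 8 the small empty vector domains face 1 long domain with BAF47. On chromosome 6 a 650 kb domain and the unlisted bin before it face 4 domains. On chromosome 7 a 1.75 Mb domain is divided at 3.15 to 3.2 Mb.

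The other windows whose domain numbers did not overlap between vectors differed by fewer domains. Both BAF47 lists were higher at the distal ends of chromosome 3 (16 and 15 against 17 and 18), chromosome 8 (24 and 24 against 26 and 26) and chromosome 18 (12 and 12 against 13 and 13). They were also higher at those of chromosome 20 (16 and 17 against 19 and 18) and chromosome 21 (22 and 22 against 23 and 25). Both were lower at the distal ends of chromosome 2 (17 and 17 against 16 and 16), chromosome 11 (10 and 10 against 9 and 9) and chromosome 15 (17 and 16 against 15 and 15). The windows of chromosomes 2, 11, 15 and 18 were added after their values were seen, so that every window without overlap is named. At the distal end of chromosome 21 no edge was gained or lost. Of its 42 reproducible edges 38 were in all 4 lists, and the other 4 were in 3 of them. At the distal end of chromosome 9 the numbers were 24, 23, 22 and 24 and overlapped.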

How the data were processed

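Hi-C was done on 4 samples, and the authors deposited 1 domain list for each, giving chromosome, start and end in base pairs without a score. Build hg18 is given per the submitters' processing notes. The caller, aligner, resolution, filters and depth were not given in the sources used here. End domains, edges and gaps were computed from these positions in Python 3.11.15 with NumPy 2.4.6 and SciPy 1.17.1, and drawn with matplotlib 3.10.9. Corrected numbering traced the offset (up to 3 bins, cost of 10 matches per change, blocks of at least 10 matched starts) that best aligned each list with empty vector A. Samples were compared by exact permutation of vector labels (6 assignments) and by exact sign flips of ends minus interior (16 assignments), with Benjamini-Hochberg adjustment and a threshold of 0.05. The scripts were tested on copies of the empty vector A list with planted changes, namely a shift of 1 bin and divided domains. Named windows were the distal ends of chromosomes 9 and 20, up to 6 not overlapping between vectors, and the 3 smallest and 3 largest by mean size. Named edges were up to 5 gained and 5 lost, farthest from the other vector's edges. The members, windows and lists were chosen with earlier results of these data known. The shifted numbering and the changes on chromosomes 7, 8 and 20 were among those, so they are no independent support.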

Additional observations from a re-analysis of the deposited data

How the results depend on the processing

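No p-value reached 0.05 under any setting, and none could, since the smallest was 0.125, so stability is judged by values alone. Of 191 alternatives, 153 kept the sign of a difference, stayed within 1.5 times a count of edges or stayed within the 95% interval of the retained share, whatever the size of the difference. Another 25 moved and 13 reversed. Among differences that kept their sign, mean size of ends minus interior reached -92.4 kb by midpoint and -100.5 kb with the interior as 1 stretch. The coverage difference between vectors turned to -0.154 points in windows of 2.5 Mb, -0.224 in windows of 10 Mb, -0.341 at distal ends only and -0.289 without the start of chromosome 8. Coverage of ends minus interior turned to -0.410 at distal ends only and -0.467 with acrocentric starts included. Over starts only, BAF47 minus empty vector was -2.5 domains and 2.40 kb in mean size. At distal ends only it was 13.5 domains and -2.61 kb, and there the samples did not overlap between vectors. Empty vector had 348 and 343 distal domains (236.5 and 236.9 kb) and BAF47 353 and 365 (235.4 and 232.7 kb). The size difference was 0.376 kb without chromosomes 9 and 20, and 0 between medians. The median size of ends minus interior was also 0 for domains wholly inside a window, while by midpoint the medians were 150 kb and 200 kb. Leaving out 1 sample gave differences of 3.5 (without BAF47 B) to 18.5 end domains (without BAF47 A), -8.5 (without empty vector A) to -1.5 gaps (without empty vector B) and 0.0256 to 0.308 points of coverage. It gave size differences of -3.97 to 2.68 kb, positive without empty vector B (0.383) and without BAF47 B (2.68), and 49.0% to 77.8% retained, 111 to 143 gained and 96 to 124 lost edges. In these settings fewer samples have to agree. Gained and lost edges were 38 and 22 in windows of 2.5 Mb, 124 and 110 in windows of 10 Mb, and 20 and 25 at starts. They were 30 and 27, with 80.8% of domains retained, when positions were matched within 50 kb, and identity of ends minus interior was then -0.855 points in the replicate and -1.82 across vectors. Lost edges were 33 at distal ends and 36 without the start of chromosome 8, corrected. Counting every gap of 50 kb gave a vector difference of 10.5 and 4.64 more gaps per end window. The weighted interior and the settings without the start of chromosome 8 were added after the data were seen. With the letter as a replicate block the differences were 11 domains, -0.646 kb, 0.167 points and -5 gaps as before, and the smallest exact permutation p was 0.5. With 2 pairs the letters cannot be shown to pair the samples (correlation of deviations 0.25 over 39 windows). The lists limit edges to steps of 50 kb, and depth is unknown.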

Other observations

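The first 5 Mb of the lists of the 5 acrocentric chromosomes, which are not chromosome ends, held 74, 68, 72 and 76 domains (empty vector A and B, BAF47 A and B). Their mean sizes were 212, 241, 223 and 211 kb, within or below the range of the end domains. Coverage was lower than in the end windows, at 71.6%, 74%, 72.6% and 72.4%. The start of the chromosome 15 list was the emptiest, with 50%, 52%, 51% and 52% covered and 7, 5, 6 and 7 domains wholly inside. Of the domains in the first 5 Mb of all 5 acrocentric lists together, 40.5%, 44.1%, 41.7% and 39.5% were in all 4 lists.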
